A study of Mus musculus with 18 samples.

Results

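Myc and 48 genes of ribosome biogenesis were followed through 18 RNA-seq libraries of mouse marrow-derived mesenchymal stem cells (MSCs). The 49 genes were named in a list of symbols (Myc, subunits of RNA polymerase I and nucleolar factors that process ribosomal RNA), and all 49 were found among the 54347 rows of the gene table. No measured value was part of the rule, but the list was chosen with earlier results of these data known. The study asked how the state of actin in the nucleus relates to chromatin and transcription, and for that purpose MSCs from the marrow of male C57BL/6J mice were cultured in 6 groups of 3 libraries each. In the first experiment untransfected cells were left as control, or were treated with CK666, a small molecule that inhibits the Arp2/3 complex and so blocks the branching of actin filaments, or with cytochalasin D (CytoD), which caps filament ends and stops actin polymerization. The study reported that CytoD does not enter the nucleus, and that filamentous actin inside the nucleus increased with CytoD and decreased with CK666. In the second experiment every group was transfected, with a control siRNA (siControl), with an siRNA against Arp4 (siArp4), or with the siRNA against Arp4 and CK666 as well (siArp4+CK666). Arp4 is the protein of Actl6a, an actin-related subunit of chromatin remodelling complexes. Doses and times are not part of the sample labels. The cells were a primary adherent population pooled from the marrow of several mice, the 3 libraries of a group were distinct culture preparations, and no source says that they came from separate animals, so that p-values measure the spread between preparations. No transfected group that received the control siRNA together with CK666 was analysed here.

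Ribosomes are assembled mostly in the nucleolus. RNA polymerase I transcribes a long precursor, small nucleolar ribonucleoproteins (snoRNPs) guide its methylation (box C/D) and pseudouridylation (box H/ACA), and large sets of assembly factors then cut and fold the precursor into the small and the large ribosomal subunit. Myc is a transcription factor that pairs with Max, binds the E-box CACGTG and is known as a driver of cell growth and of the transcription of many ribosome biogenesis genes. In MSCs, as in other cells, ribosome production follows growth and proliferation, and it is commonly reduced when cells leave the cycle to differentiate.

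The libraries held between 18075610 and 24733212 estimated counts. All values given here are levels of RNA and not of protein. All 49 genes were well covered, and the lowest estimate of any of them in any library was 134 counts. Counts were divided by size factors (normalized counts) within each experiment separately, so that values are comparable between the groups of 1 experiment and not between the 2 experiments. For Actl6a, the target of the siRNA, the siControl libraries held 720.5, 1126 and 840.4 normalized counts, the siArp4 libraries 48.8, 56.7 and 19.4 and the siArp4+CK666 libraries 9.39, 23.3 and 17.4, so that every knockdown library was far under every siControl library. Of 11 mesenchymal markers 8 had at least 10 normalized counts in every library, while Thy1 was under 3 and Nt5e under 10 in all of them. Of 9 blood cell markers 4 were under 3 in every library, among them the defining marker Ptprc, while 4 (Cd14, Cd68, Csf1r and Kit) had at least 10 in every library and Adgre1 reached 10 in 1. Of 5 endothelial markers Cdh5 and Emcn were under 3 in every library, and Kdr reached 10 in some. In bulk RNA fewer cells of a type and less RNA per cell cannot be told apart. One library stood apart: siControl replicate 2 held the highest or lowest value with the widest gap for 32 of the 49 genes in its group, and the median coefficient of variation of the 49 genes was 24.5% in siControl against 5.66% to 14.4% in the other 5 groups. In the CK666 group replicate 1 had that place for 37 of 49 genes. Counts of the 49 genes called against control or siControl are given with and without CK666 replicate 1 or siControl replicate 2. Those of the wider lists are given with all libraries only.

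Myc (ENSMUSG00000022346.16, at chr15:61985391-61990374 on the plus strand of GRCm38) moved in opposite directions with the 2 actin drugs. In normalized counts it was at 1356, 1284 and 1452 in the control libraries, at 2419.8, 2062 and 2085 with CK666 and at 451, 390.4 and 357 with CytoD. The 3 groups did not overlap, with CK666 highest and CytoD lowest. Myc was 1.60-fold higher with CK666 than in control (log2 fold change 0.68 ± 0.12 (SE, n = 3 against 3), adjusted p = 2.41e-07 by DESeq2), and 3.42-fold lower with CytoD (-1.77 ± 0.13, adjusted p = 5.16e-41 by DESeq2). Without CK666 replicate 1 the rise with CK666 was 0.61 on the log2 scale.

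In the transfected cells Myc had normalized counts of 339, 445 and 421 under the control siRNA, 1702, 1746 and 1605 under siArp4 and 1096, 1427 and 1442 under siArp4+CK666. All 6 knockdown libraries lay above all 3 siControl libraries. The rise was 4.20-fold with siArp4 (2.07 ± 0.18 on the log2 scale, adjusted p = 4.61e-27 by DESeq2) and 3.30-fold with siArp4+CK666 (1.72 ± 0.19, adjusted p = 4.94e-19). Adding CK666 to the knockdown left Myc at a log2 difference of -0.35 ± 0.18 that did not pass the threshold (adjusted p = 0.221 by DESeq2), although the 3 siArp4+CK666 libraries were all under the 3 siArp4 libraries. The response to CK666 differed between knockdown and untransfected cells by -1.03 ± 0.20 on the log2 scale (adjusted p = 1.71e-05 by DESeq2), an interaction tested over all 18 libraries and lower in the knockdown cells. Because the knockdown cells were transfected and the untransfected cells were not, transfection and loss of Arp4 cannot be told apart in this difference.

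**Figure D1:**
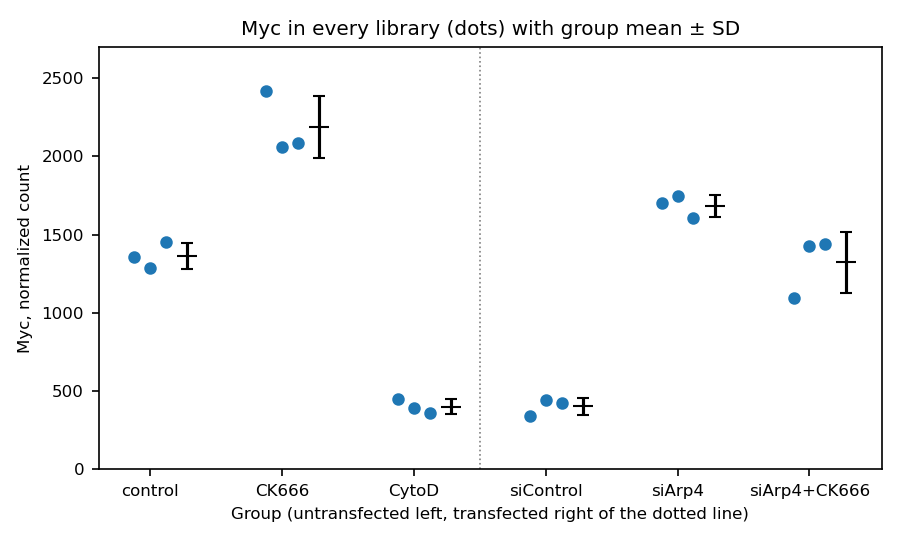
Normalized counts of Myc (y axis, linear from 0) in the 6 groups (x axis), with 1 dot per library and the group mean ± SD beside it; the 2 experiments were scaled separately. CK666 libraries lie between 2062 and 2419.8 and CytoD libraries between 357 and 451, on either side of the control libraries, and the 6 knockdown libraries lie between 1096 and 1746, all above the siControl libraries.

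With CytoD, 46 of the 49 genes fell against control at an adjusted p under 0.01, and none rose. Over all 13717 genes tested in this comparison 29.6% were called at that threshold and 16.0% were called lower. The median log2 fold change of the 49 genes was -1.16 and that of all tested genes 0.0076. With the further demand of a change over 2-fold, 28 of the 49 genes were called lower, against 4.32% of all tested genes. In 48 of the 49 genes the 3 CytoD libraries lay under the 3 control libraries without overlap, and 30.0% of all tested genes had that pattern. The 3 genes that were not called were Polr1c, Nop10 and Imp3. Taken without Myc, the 48 genes together held 0.579% to 0.598% of all counts in the control libraries and 0.287% to 0.298% in the CytoD libraries.

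RNA polymerase I was represented by Polr1a and Polr1b, which form its catalytic core, by Polr1e of its peripheral subunits and by Polr1c, which RNA polymerase III also uses. Polr1a was at 2519.6, 2731 and 2982 in control and at 1159.5, 1099.9 and 1357 with CytoD, a log2 difference of -1.19 ± 0.16 (adjusted p = 2.47e-12 by DESeq2). Polr1b was at 834, 931 and 989.5 in control and at 309, 414 and 354 with CytoD (-1.35 ± 0.15, adjusted p = 4.80e-19). In both genes every CytoD library was under every control library by a wide margin. Polr1e had a log2 fold change of -0.99 ± 0.23 (adjusted p = 0.000125 by DESeq2). Polr1c, the subunit shared with RNA polymerase III, was at 776, 683 and 736 in control and at 779.8, 711 and 673 with CytoD, overlapping groups with a log2 difference of -0.02 ± 0.17 (adjusted p = 0.943).

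The genes of the box C/D snoRNP proteins all fell. Nop58, 1 of the 2 scaffold proteins of the particle, was at 3679, 3332 and 4107 in control and at 1044, 1098 and 1299 with CytoD (-1.69 ± 0.12 on the log2 scale, adjusted p = 6.35e-43 by DESeq2). Nop56, the other scaffold, was at 3808, 3915 and 3808 and at 1221, 1362 and 1184 (-1.61 ± 0.11, adjusted p = 6.12e-48). Both scaffold genes were thus more than 3-fold lower, with libraries that agreed closely within each group. Fbl, the methyltransferase of the particle, was at 1656, 1604 and 1462 in control and at 677, 648 and 789.9 with CytoD (-1.16 ± 0.24, adjusted p = 7.11e-06 by DESeq2).

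Of the box H/ACA snoRNP genes, Dkc1 had the largest fall among all 49 genes. Dkc1, the pseudouridine synthase, which is also a part of telomerase, was at 1622, 1326 and 1589 in control and at 349.8, 325 and 375 with CytoD, 4.33-fold lower (-2.11 ± 0.13 on the log2 scale, adjusted p = 3.41e-53 by DESeq2). The genes of the other 3 proteins of the particle had smaller differences. Gar1 was at 339, 493 and 269.9 in control and 196, 154 and 226 with CytoD (-0.94 ± 0.25, adjusted p = 0.000892 by DESeq2), a call that was lost without control replicate 2 (-0.67, adjusted p = 0.0229) or CytoD replicate 2 (-0.80, adjusted p = 0.0168) and in edgeR's quasi-likelihood test (adjusted p = 0.0125). Nhp2 was at 1232, 1224 and 1216 and 696, 732 and 731 (-0.77 ± 0.23, adjusted p = 0.00405 by DESeq2), and it lost its call whenever any 1 control or CytoD library was left out (adjusted p from 0.018 to 0.0251) and in edgeR's test (adjusted p = 0.0276). Nop10, the smallest protein of the particle, was at 535, 553 and 595 in control and 497, 505 and 529 with CytoD. Its CytoD libraries were all lower, but the log2 difference of -0.14 ± 0.15 did not pass (adjusted p = 0.519 by DESeq2). Without strand, reads of exons that Nop56 shares with Idh3b, Dkc1 with Mpp1 and Nhp2 with Rmnd5b on the opposite strand cannot be told apart, and 22.4% of the 31-base stretches of Nop56 and 21.8% of those of Fbl recur in other genes.

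The genes of 5 abundant nucleolar proteins that organise the compartment or accompany snoRNPs and precursor RNA all fell. Ddx21, an RNA helicase of the nucleolus, was at 6275, 6536 and 6836 in control and at 1839, 1748 and 1898 with CytoD (-1.84 ± 0.10, adjusted p = 1.59e-69 by DESeq2). Nolc1, a chaperone of snoRNPs, was at 3296, 3324 and 3695 and 1174, 1121 and 1037 (-1.63 ± 0.09, adjusted p = 5.53e-65). In both genes the CytoD libraries were all lower than the control libraries by a wide margin. Mybbp1a fell by 1.33 on the log2 scale, Ncl (nucleolin) by 1.11 and Npm1 (nucleophosmin) by 0.63, with adjusted p from 3.85e-33 to 8.47e-05 by DESeq2. In Npm1 29.4% of the 31-base stretches of its transcripts also occur in other genes, so the estimate for this gene depends on how reads were shared between them.

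Among 16 factors of the small subunit 15 fell with CytoD, 7 of them over 2-fold, with a median of -0.95. Rrp12, which takes part in maturation and export of pre-ribosomes, was at 1083, 984 and 1145 in control and at 275, 254 and 241 with CytoD, 4.17-fold lower (-2.06 ± 0.12, adjusted p = 1.56e-64 by DESeq2). The complexes that first bind the precursor were represented by Heatr1, Wdr43, Utp4 and Utp15, which fell by 1.30, 1.34, 1.15 and 0.73 on the log2 scale, and by Utp18, which fell by 0.96 (adjusted p from 7.37e-57 to 1.55e-10 by DESeq2). Of the U3 snoRNP and its partners, Rrp9 fell by 1.42 and Imp4 by 0.61, whereas Imp3 was at 744, 687 and 737 in control and 529.8, 549 and 629 with CytoD, a log2 difference of -0.35 ± 0.24 that did not pass (adjusted p = 0.261). In Imp3 17.0% of the 31-base stretches recur in other genes. Nob1, the endonuclease of the last cut of the 18S precursor, fell by 0.89 (adjusted p = 2.37e-07 by DESeq2). The counting had no strand, and Rrp9 shares exon sequence on the other strand with Parp3, Heatr1 with Lgals8 and Tsr1 with Srr, so part of their reads cannot be assigned with certainty.

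All 16 factors of the large subunit fell, 10 of them over 2-fold, with a median of -1.28. Rrp1b had the largest difference in this set, from 849, 852 and 699 in control to 279, 319 and 185 with CytoD (-1.62 ± 0.24, adjusted p = 5.33e-10 by DESeq2). Noc2l was at 2435, 2238 and 2512 and 801, 867 and 872 (-1.50 ± 0.10, adjusted p = 3.84e-45). The spread between Rrp1b libraries was wide and that between Noc2l libraries narrow, and neither gene's groups overlapped. Gnl3 (nucleostemin), a GTPase of the nucleolus, was at 2596, 2501 and 2558 in control and 959, 905 and 957 with CytoD (-1.44 ± 0.10, adjusted p = 2.68e-45 by DESeq2). The genes of the 3 proteins of the PeBoW complex fell unequally, Bop1 by 1.23, Wdr12 by 0.87 and Pes1 by 0.55 on the log2 scale (adjusted p from 5.25e-14 to 0.000563). Nop2, a methyltransferase of the large subunit RNA, fell by 1.33, Ppan by 1.45, Ebna1bp2 by 1.40 and Ftsj3 by 1.40, and the smallest fall in the set was that of Pes1. Bop1 shares exon sequence with Mroh1 and Gnl3 with Pbrm1, and in Ddx18 65.5% and in Pes1 34.9% of the 31-base stretches recur in other genes, and the gene that shares most with each had almost no counts.

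**Figure D2:**
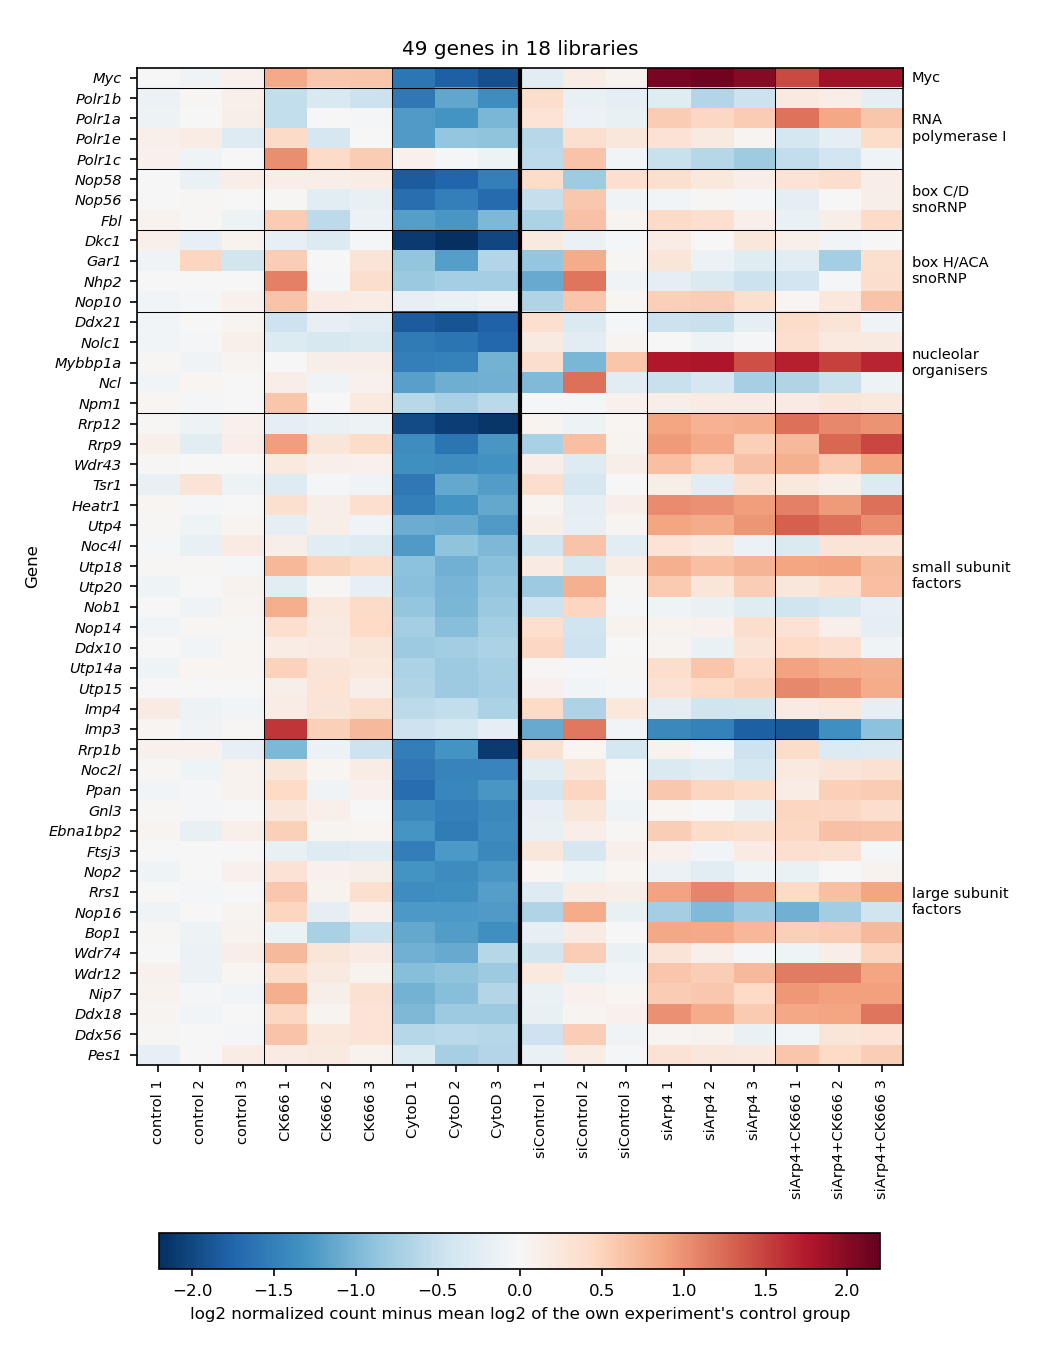
Heat map of the 49 genes (rows, in blocks by role, ordered within a block by the CytoD difference) in 18 libraries (columns); colour is the log2 normalized count minus the mean log2 of the control or siControl libraries of the same experiment. The 3 CytoD columns are blue for nearly all rows, Polr1c, Nop10 and Imp3 being the palest, and the siControl replicate 2 column departs from its neighbours in both directions.

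CK666 left most of the genes near their control level. Of the 49 genes 9 passed the threshold against control, 7 higher and 2 lower, while 30.0% of all 14597 genes tested were called (15.3% higher and 14.7% lower), so that the share of 9 in 49 was under the background. The median log2 fold change of the 49 genes was 0.17 and that of all tested genes 0.013. Imp3 alone also passed the 2-fold rule, which 4.89% of all tested genes did in the higher direction. By libraries without overlap, 18 of the 49 genes were higher and 5 lower, beside 24.1% and 23.5% of all tested genes. Higher with CK666 were Myc, Polr1c, Imp3, Utp18, Nob1, Ddx56 and Nop14, and lower were Polr1b and Nolc1. The number of calls depended on single libraries, with 4 without control replicate 3 and 16 without CK666 replicate 2. Without CK666 replicate 1 again 9 genes were called, 6 higher and 3 lower, with a median of 0.12. Ddx56, Nob1 and Polr1b were lost and Bop1, Ddx21 and Imp4 were added.

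Imp3 was at 744, 687 and 737 in control and at 2149.9, 1034 and 1179.8 with CK666 (1.01 ± 0.24 on the log2 scale, adjusted p = 0.000119 by DESeq2), and without the high CK666 replicate 1 the difference was 0.62 (adjusted p = 1.34e-06). Polr1c was at 776, 683 and 736 in control and 1491, 978 and 1078 with CK666 (0.69 ± 0.17, adjusted p = 0.000181; 0.49 without CK666 replicate 1). Utp18 was at 881, 881 and 849 and 1448, 1215 and 1149 (0.55 ± 0.12, adjusted p = 4.24e-05). In these 3 genes all CK666 libraries lay above all control libraries, with replicate 1 the highest each time. Nob1 was higher by 0.50, Ddx56, an RNA helicase of the large subunit, by 0.39 and Nop14 by 0.34 (adjusted p from 0.00502 to 0.00661 by DESeq2), and Nob1 and Ddx56 were not called without CK666 replicate 1 (adjusted p = 0.014 and 0.0122).

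In the other direction, Polr1b was at 834, 931 and 989.5 in control and 626, 729 and 657 with CK666 (-0.45 ± 0.14, adjusted p = 0.00521 by DESeq2), and Nolc1 was at 3296, 3324 and 3695 and 2772, 2678 and 2751 (-0.33 ± 0.09, adjusted p = 0.00132). Both were lower in every CK666 library than in every control library. Polr1b lost its call without control replicate 2 or 3, any CK666 replicate but the second, or CytoD replicate 3 (adjusted p from 0.0117 to 0.0643), Nolc1 without control replicate 3 or CK666 replicate 2 or 3 (adjusted p from 0.0108 to 0.0345), and Nob1 also without any 1 control library, CK666 replicate 3, or CytoD replicate 1 or 3 (adjusted p from 0.0103 to 0.0425). In edgeR's quasi-likelihood test 4 of the 9 calls remained, those of Myc, Polr1c, Imp3 and Utp18. The snoRNP genes did not pass with CK666, and their differences ran from -0.17 for Dkc1 to 0.56 for Nhp2. Nhp2 was at 1232, 1224 and 1216 in control and 2644, 1190.1 and 1595 with CK666, 1 high library and 2 others of which 1 was at the control level. The 48 genes without Myc held 0.611% to 0.681% of all counts in the CK666 libraries, above the 0.579% to 0.598% of control.

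**Figure D3:**
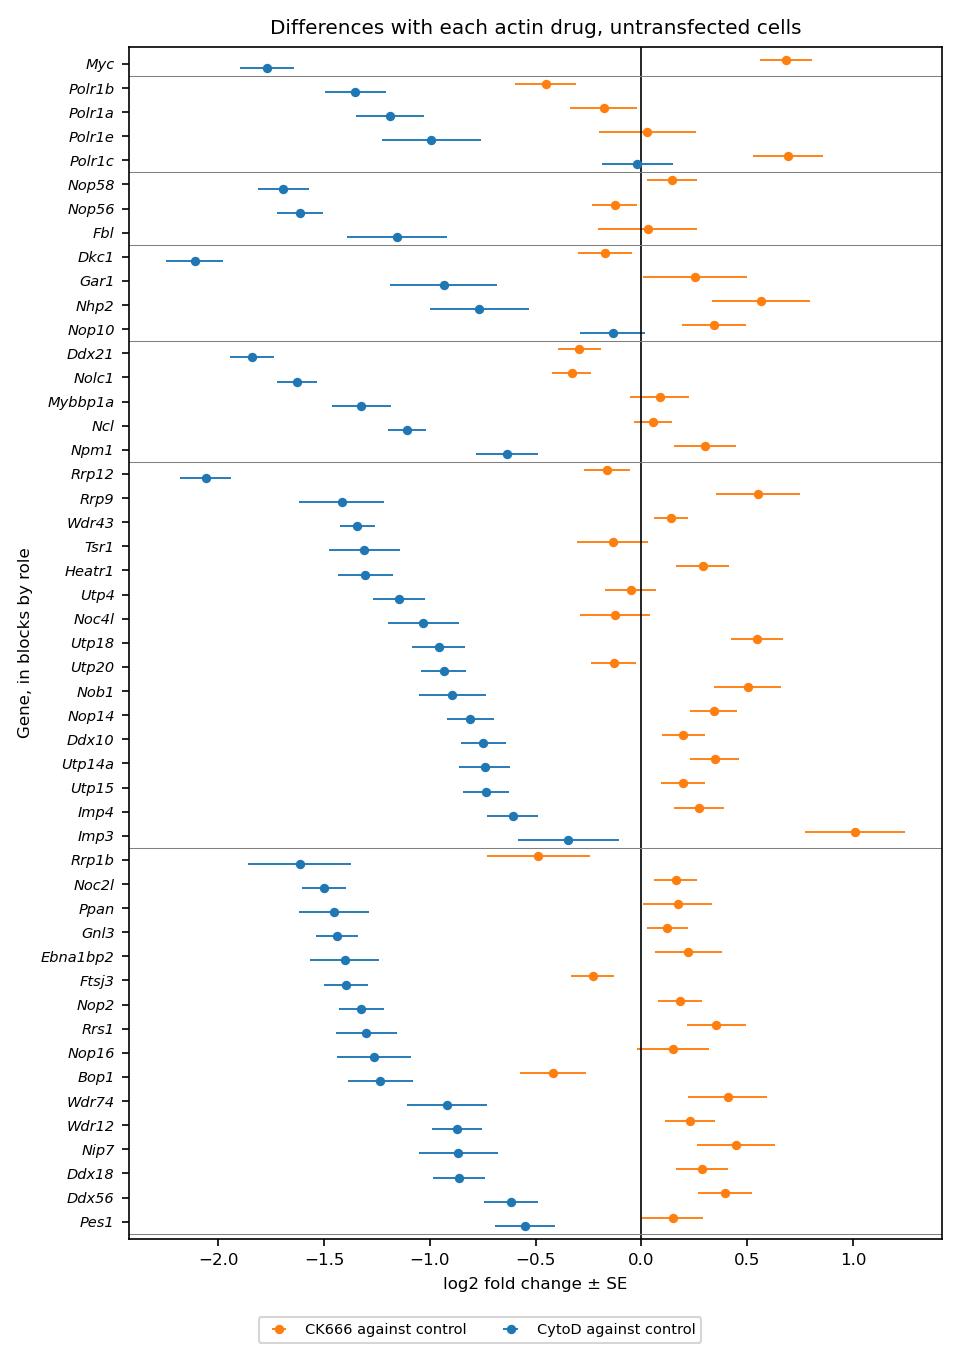
Log2 fold change ± SE (x axis) of the 49 genes (y axis, in blocks by role) with CK666 (orange) and with CytoD (blue), each against the same 3 control libraries. The CytoD points run from -2.11 (Dkc1) to -0.02 (Polr1c), and the CK666 points lie between -0.49 (Rrp1b) and 1.01 (Imp3).

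Both drug comparisons use the same control libraries, so the drugs were also compared with each other directly. Every one of the 49 genes was higher with CK666 than with CytoD at an adjusted p under 0.01, against 16.9% of the 15038 genes tested, and 38 were higher over 2-fold, against 5.08%. The median of the 49 genes was 1.19 and that of all tested genes -0.026. In all 49 genes the 3 CK666 libraries lay above the 3 CytoD libraries, a pattern of 24.2% of all tested genes. The difference was largest in Myc (2.46 ± 0.13 on the log2 scale, 5.48-fold), followed by Rrp9 (1.97), Dkc1 (1.94), Rrp12 (1.90) and Nop58 (1.84). It was smallest in Nop10 (0.48 ± 0.15, adjusted p = 0.00542 by DESeq2), which lost its call when CK666 replicate 1 or any 1 control or CytoD library was left out (adjusted p from 0.0107 to 0.035). Without CK666 replicate 1 the median over the 49 genes was 1.15. Of the 46 genes lower with CytoD, 39 were not called with CK666, 5 were higher and 2 were lower with CK666.

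Many other genes of the pathway were also lower with CytoD, with a median nearer to 0. Of 111 tested further ribosome biogenesis genes (polymerase I factors, other small and large subunit factors, snoRNP assembly factors and the RNA exosome) 73 fell with CytoD and 1 rose, with a median of -0.64, where 16.0% of all tested genes were called lower. With CK666 17 rose, 3 fell and 91 were not called, with a median of 0.13. Over all tested genes 15.3% were called higher and 14.7% lower with CK666, so the rises were at the background share and the falls under it. Their parts were unequal. With CytoD 29 of 37 other small subunit factors fell, led by Lyar (-1.71 on the log2 scale) and Nol10 (-1.43), and 26 of 36 other large subunit factors, led by Mrto4 (-1.25) and Ddx27 (-1.21), while Nop53 rose (0.53). Among 16 other polymerase I factors 3 fell, Tcof1 (treacle, -1.40) and Cd3eap (-0.82) foremost, a number near the 16.0% of all tested genes called lower. Of 10 snoRNP assembly factors 7 fell, led by the ATPases Ruvbl2 (-1.07) and Ruvbl1 (-0.76), and of 12 tested exosome genes 8, led by the nuclease Dis3 (-1.58) and by Exosc2 (-1.26).

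Other genes that are commonly listed as Myc targets were mostly lower with CytoD. Of 22 such genes 17 fell with CytoD, where 16.0% of all tested genes were called lower, and none rose, with a median of -0.93. Srm, spermidine synthase, was at 2988, 2412 and 2913 in control and 628, 592 and 617 with CytoD (-2.18 ± 0.14), and Tfrc, the transferrin receptor, fell by 1.64. With CK666 4 rose and 4 fell, numbers near the 15.3% and 14.7% of all tested genes called higher and lower. Odc1, ornithine decarboxylase, went from 5512, 4999.7 and 5604 in control to 15966, 12792 and 13191 with CK666 (1.38 ± 0.11, adjusted p = 4.29e-34 by DESeq2), and Ldha, lactate dehydrogenase, from 36339, 32857 and 33358 to 16003, 12726 and 12639 (-1.31 ± 0.11, adjusted p = 3.14e-29). All CK666 libraries were above control in Odc1 and under control in Ldha.

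Of 12 tested genes of the wider Myc network 1 rose (Mlx, 0.73) and 1 fell (Mxd3) with CK666, and 3 rose (Mxd4, Mxd1 and Mlxipl) and 1 fell (Mxd3) with CytoD. Over all tested genes 30.0% were called with CK666 and 29.6% with CytoD, so these numbers of calls were under or near the background. Mlxipl was listed at 0 in every control library and was at 18.9, 21.4 and 5.26 with CytoD, and Mxd1 rose by 1.18 on the log2 scale. Mxd4, a repressor that competes with Myc for Max, was at 1595, 1667 and 1512 in control and 4675, 4803 and 4626 with CytoD (1.56 ± 0.10, adjusted p = 9.98e-49 by DESeq2). Mxd3, of the same family, was at 406, 405 and 388 in control, 92.4, 55 and 87.1 with CK666 (-2.35) and 265, 229 and 273 with CytoD (-0.64). Mxd4 was thus highest with CytoD, where Myc was lowest, and Mxd3 was lower with both drugs.

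A set of 12 proliferation genes fell with both drugs. All 12 fell with CK666 and all 12 with CytoD, where 14.7% and 16.0% of all tested genes were called lower. The medians were -1.13 in each comparison, led by Mki67 (-1.90) and Mcm5 (-1.57) with CK666 and by Mcm2 (-1.43) and Mcm5 (-1.36) with CytoD. Their summed normalized counts were 68881 to 71439 in control, 30218 to 31359.7 with CK666 and 31259 to 32449 with CytoD. The sums with the 2 drugs overlapped, but single genes differed between them. Compared directly, Mcm2 was higher with CK666 than with CytoD (0.82), Mki67 (-0.96), Tyms (-0.44), Plk1 (-0.35) and Ccna2 (-0.33) were lower, and 7 of the 12 were not called, with a median of -0.081. The summed mesenchymal markers were 369053 to 378085 in control, 233953 to 262486 with CK666 and 290642.5 to 320689 with CytoD. Called or not, all 9 tested mesenchymal markers were lower with CK666 (median -0.59), while with CytoD 5 were higher and 4 lower (median 0.029). The summed blood cell markers were 245 to 325 in control, 168 to 248 with CK666 and 408 to 442 with CytoD, where Cd68 rose with both drugs (0.97 and 1.42) and Cd14 fell with CK666 (-1.24). The part of proliferation, of other cells and of cell state in these results was not tested.

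**Figure D4:**
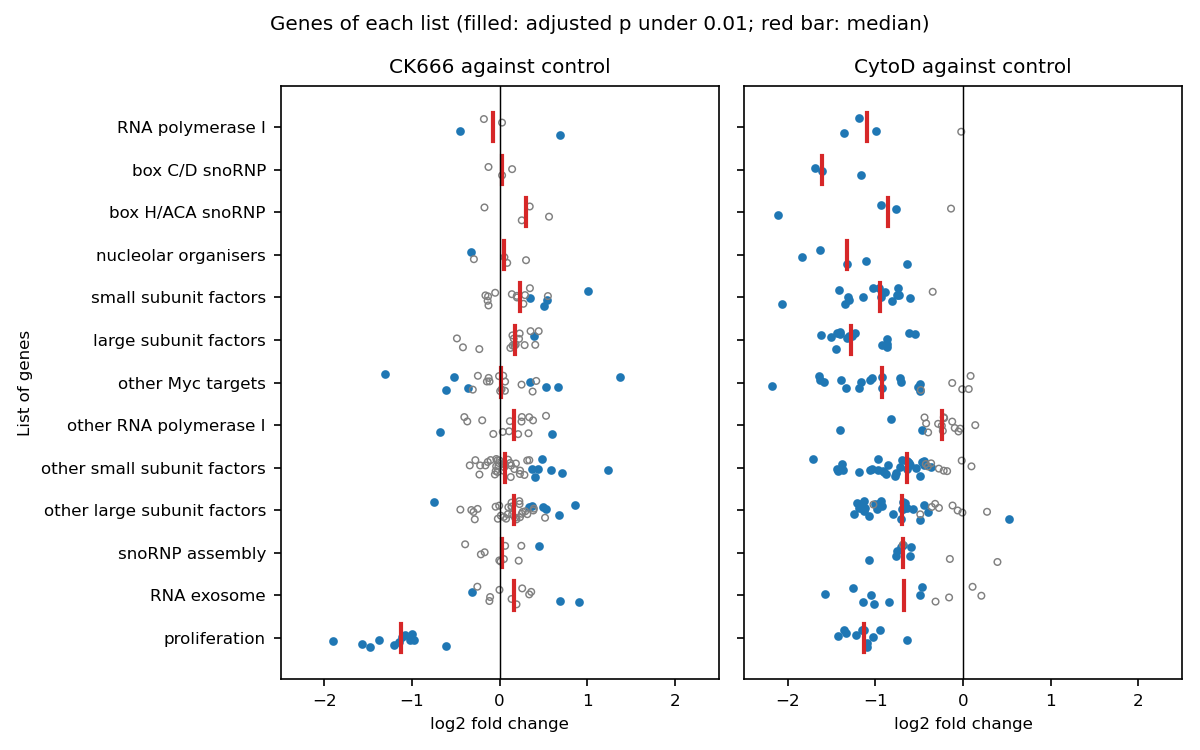
Log2 fold change (x axis) of the genes of each list (y axis) with CK666 (left) and CytoD (right) against control, with filled dots for adjusted p under 0.01, open dots for the rest and a red bar at the median. The ribosome biogenesis lists lie left of 0 with CytoD and around 0 with CK666, whereas the proliferation genes lie left of 0 with both.

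Knockdown of Arp4 raised some of the genes and left most without a call, on a base that the spread among the siControl libraries made uncertain. Replicate 2 of siControl was at 49243 for Ncl where the other 2 siControl libraries were at 10844.5 and 18001, and at 767 for Mybbp1a where they were at 2019 and 2337. For 6 of the 49 genes it was over 2-fold above the mean of the others and for 3 (Mybbp1a, Nop58 and Imp4) under 0.5 of it. With siArp4 14 of 49 genes were called against siControl, 13 higher and 1 lower, where 25.1% of all 15415 tested genes were called and 11.9% were called higher. The median of the 49 genes was 0.15 and that of all tested genes -0.053. Without siControl replicate 2 the call was made for 17 genes, 15 higher and 2 lower, and the median was 0.31. Of these 13 were the same as before, Wdr43 was lost, and Ebna1bp2, Imp4, Ppan and Rrp9 were added. Without siArp4 replicate 1 the call was made for 9 genes, and without siControl replicate 1 for 18. Over all genes, 5074 of 14202 tested were called without siControl replicate 1 and 4011 of 14375 without siControl replicate 2.

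With siArp4+CK666 19 genes were called against siControl, 18 higher and 1 lower, against 29.9% of all tested genes called and 14.0% called higher. Without siControl replicate 2 the call was made for 20, all higher, 18 of them the same as before. The median was 0.23 with that library and 0.43 without it. Both knockdown comparisons share the siControl libraries, so their values stand side by side and are not independent of each other.

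Mybbp1a, a nucleolar protein that binds transcription factors, was at 2019, 767 and 2337 in siControl, 5205, 5297 and 4079 with siArp4 and 5035, 4334 and 4919 with siArp4+CK666. All knockdown libraries were above all siControl libraries, and the log2 fold changes were 1.51 ± 0.36 and 1.48 ± 0.36 (adjusted p = 0.000217 and 0.000237 by DESeq2), or 1.15 and 1.12 without siControl replicate 2. In edgeR's test both calls were lost (adjusted p = 0.0123 and 0.0112). Heatr1 was at 332, 274 and 352 in siControl, 654, 638 and 597 with siArp4 and 681, 608 and 732 with siArp4+CK666 (0.98 ± 0.17 and 1.07 ± 0.17, adjusted p = 6.43e-08 and 1.42e-09 by DESeq2). Utp4 was at 529, 428 and 507, 888, 858 and 955 and 1205, 1130.4 and 986 in the same order of groups (0.88 ± 0.16 and 1.18 ± 0.16, adjusted p = 4.43e-07 and 2.65e-12). For Heatr1 and Utp4, both of the first complex on the small subunit precursor, siControl replicate 2 was only slightly lower than its neighbours, and the groups stood clear of each other.

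Further genes higher in both knockdown groups were Rrp12 (0.80 and 1.08), Utp14a (0.48 and 0.84), Utp18 (0.71 and 0.80) and Wdr43 (0.58 and 0.74) of the small subunit set. From the large subunit set came Ddx18 (0.81 and 0.97), Rrs1 (0.95 and 0.66), Bop1 (0.80 and 0.59), Wdr12 (0.61 and 1.04) and Nip7 (0.53 and 0.92). In edgeR's test the siArp4 calls of Utp14a, Utp18, Wdr43, Wdr12 and Nip7 were lost (adjusted p from 0.0102 to 0.0244), and so was the siArp4+CK666 call of Rrs1 (adjusted p = 0.0165). Called with siArp4+CK666 and not with siArp4 were Utp15 (0.96), Rrp9 (1.08), Polr1a (0.88), Ebna1bp2 (0.58) and Pes1 (0.53), of which Utp15 alone also differed between these 2 groups when they were compared directly. Rrp9 was at 226, 586 and 388 in siControl and 609, 894 and 1033 in siArp4+CK666. Its call was lost without siControl replicate 1 or 3, any 1 siArp4 library, or siArp4+CK666 replicate 2 or 3 (adjusted p from 0.0116 to 0.0588), and in edgeR's test it was lost (adjusted p = 0.0313), as was that of Pes1 (adjusted p = 0.0115).

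None of the 3 box C/D and 4 box H/ACA snoRNP genes passed in either knockdown comparison, and their log2 differences ran from -0.63 (Nhp2, siArp4) to 0.38 (Nop10, siArp4). Nop56 was at 1456, 3115 and 1964 in siControl, 1998, 2110.5 and 2014 with siArp4 and 1797, 2053 and 2277 with siArp4+CK666, with siControl replicate 2 the highest of the 9. Dkc1 was at 691, 541 and 582, 671, 608 and 715 and 653, 578 and 609 in these groups, which overlapped. Of the polymerase I genes, Polr1a rose with siArp4+CK666 (0.88 ± 0.21, adjusted p = 0.000203 by DESeq2), while Polr1b, Polr1c and Polr1e were not called, with siArp4 differences of -0.48, -0.71 and 0.14. Without siControl replicate 1 Polr1a (0.51 in the full set) and Polr1c passed with siArp4, at 0.67 and -0.96 (adjusted p = 0.00327 and 0.000501).

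Imp3 was the 1 gene called lower. It was at 711, 3428 and 1470.5 in siControl, 575, 548 and 443 with siArp4 and 419, 603 and 817 with siArp4+CK666. The siArp4 libraries were under all siControl libraries, and siArp4+CK666 replicate 3 was within the siControl range. The log2 differences were -1.84 ± 0.49 (adjusted p = 0.000896 by DESeq2) and -1.61 ± 0.49 (adjusted p = 0.00366), and without siControl replicate 2 they were -1.07 (adjusted p = 0.00933) and -0.83 (adjusted p = 0.0451). The call with siArp4 was also lost without siArp4 replicate 3 (adjusted p = 0.0114), that with siArp4+CK666 also without siArp4+CK666 replicate 1 or 2 (adjusted p = 0.0324 and 0.0202), and both in edgeR's test (adjusted p = 0.0222 and 0.0315). The rise of Myc, 4.20-fold with siArp4, thus stood beside a median rise of 0.15 on the log2 scale in all 49 genes.

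**Figure D5:**
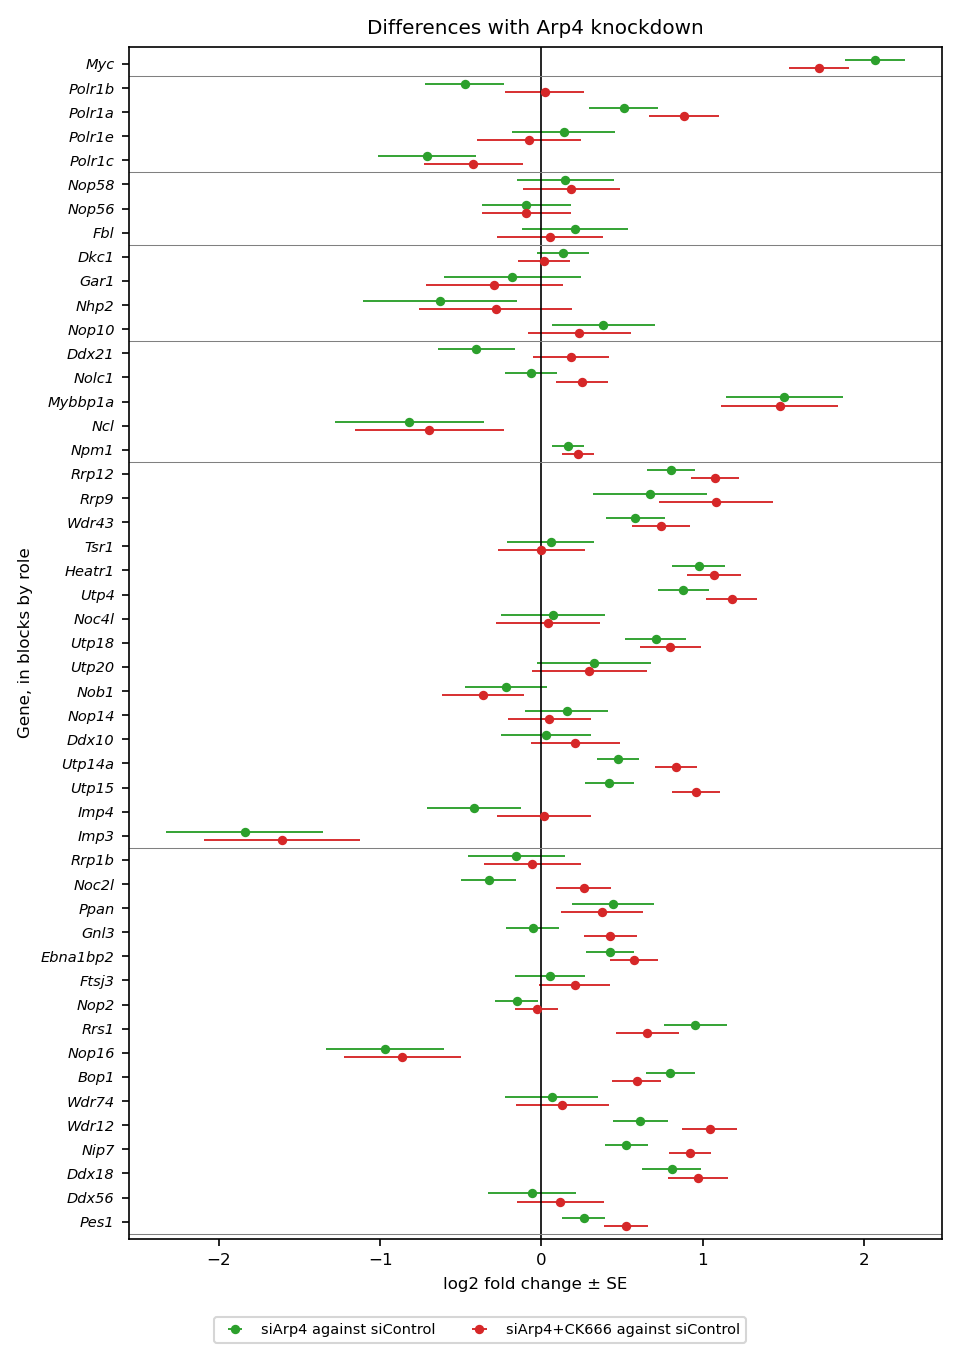
Log2 fold change ± SE (x axis) of the 49 genes (y axis, in blocks by role) with siArp4 (green) and siArp4+CK666 (red), each against the same 3 siControl libraries. Myc and Mybbp1a lie farthest to the right and Imp3 farthest to the left, and the standard errors of several genes (Nhp2 0.48, Imp3 0.49) are wide.

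The wider lists are read against the shares over all tested genes, 11.9% called higher and 25.1% called in all with siArp4, and 14.0% and 29.9% with siArp4+CK666. Of the 111 further ribosome biogenesis genes 25 rose and 5 fell with siArp4 (median 0.21), and 31 rose and 8 fell with siArp4+CK666 (median 0.22). Among them Ddx54 (1.30 and 1.31) and Taf1c (1.09 and 1.05) were higher and Znrd1 of polymerase I (-1.43 and -1.27) lower with both. Of the 22 other Myc targets 1 rose and 5 fell with siArp4 (median -0.22), and 3 rose and 3 fell with siArp4+CK666 (median -0.15), numbers of calls near those shares. Srm was at 467, 991 and 719.9 in siControl, 262, 245 and 207 with siArp4 and 142, 165 and 167 with siArp4+CK666, lower in every knockdown library (-1.61 with siArp4). In the Myc network Mxd3 fell with siArp4 (-2.62) and also with siArp4+CK666. Mlxipl and Max, the partner of Myc, rose with siArp4+CK666 (Max by 0.59), and the other tested genes of the network were not called in either comparison. Proliferation genes fell in 11 of 12 cases with siArp4 (median -1.34) and in all 12 with siArp4+CK666 (median -3.03), their summed counts being 23817 to 26243 in siControl, 10836 to 11645 in siArp4 and 5569 to 5694 in siArp4+CK666. The summed mesenchymal markers were 201484 to 231966, 288940 to 309409 and 138351 to 147742 in the same groups. Called or not, 5 of 9 tested mesenchymal markers were higher and 4 lower with siArp4 (median 0.17), and 2 were higher and 7 lower with siArp4+CK666 (median -0.80). The summed blood cell markers were 169 to 397, 223 to 260 and 213 to 265. The endothelial sums were low, at 4.87 to 6.41, 9.04 to 12.7 and 20.9 to 25.4, and Kdr was called higher with siArp4+CK666 (2.67). The part of these differences in the results was not tested.

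Adding CK666 to the knockdown moved few of the genes. Against siArp4 alone 2 of 49 were called, both higher, where 9.9% of 14098 tested genes were called and 3.82% were called higher, and the median was 0.13 beside 0.016 over all tested genes. Noc2l was at 823, 859 and 783 with siArp4 and 1183, 1238 and 1292 with siArp4+CK666 (0.59 ± 0.17, adjusted p = 0.00575 by DESeq2). Utp15 was at 444, 484 and 504 and 742, 703 and 629 (0.54 ± 0.15, adjusted p = 0.00345). The groups did not overlap in either gene, but both calls were lost when siControl replicate 3 or almost any siArp4 or siArp4+CK666 library was left out (adjusted p from 0.0149 to 0.111, Utp15 being kept without siArp4+CK666 replicate 3), and in edgeR's test (adjusted p = 0.0349 and 0.0337). With a replicate block neither gene was called. No gene of the 111 further ribosome biogenesis genes but Rrn3 (higher) and Mphosph6 (lower) was called.

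The effect of CK666 was then compared between knockdown and untransfected cells by the interaction term. It passed in 4 of 49 genes, against 7.8% of 13511 tested genes. Besides Myc these were Polr1b (-0.45 in untransfected and 0.50 in knockdown cells, difference 0.94 ± 0.26, adjusted p = 0.00384 by DESeq2), Ddx21 (-0.29 and 0.59, difference 0.88 ± 0.23, adjusted p = 0.00325) and Nolc1 (-0.33 and 0.31, difference 0.64 ± 0.14, adjusted p = 0.000265). The single effects mostly did not pass: Polr1b and Nolc1 were called with CK666 in untransfected cells and Ddx21 was not (adjusted p = 0.0119 by DESeq2), and in knockdown cells none of the 3 nor Myc was called (adjusted p from 0.0805 to 0.221). The count of 4 in 49 was near the background share. Ddx21 was at 1229, 1221 and 1495 with siArp4 and 2260.0, 2085 and 1592 with siArp4+CK666. Polr1b was at 274, 212 and 238 and 375, 362 and 283, and Nolc1 was at 1302, 1210.5 and 1287 and 1694, 1518 and 1504. All 3 siArp4+CK666 libraries were above all siArp4 libraries in each of them. In edgeR's test the interaction was not called in the 3 genes (adjusted p = 0.0271 for Polr1b, 0.0292 for Ddx21 and 0.0225 for Nolc1). Leaving out 1 of 8 libraries ended the call of Polr1b (control replicate 2 or 3, CK666 replicate 1 or 3, siArp4 replicate 2 or 3, siArp4+CK666 replicate 1 or 2, adjusted p from 0.015 to 0.0244). Leaving out 1 of 7 ended that of Ddx21 (control replicate 2 or 3, CK666 replicate 1, siArp4 replicate 1 or 2, siArp4+CK666 replicate 1 or 2, adjusted p from 0.0128 to 0.0229).

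The promoters of the genes were searched for the E-box, since Myc with Max binds it. RefSeq (GRCm38.p6) gave a window of 250 bases before to 50 bases after a start site for 43 of the 49 genes, and Myc, Fbl, Npm1, Bop1, Rrs1 and Rrp12 had no entry. The palindrome CACGTG stood in the window of 9 of the 43 genes (20.9%) and of 8.09% of all 27025 genes in the table, and the variant CACGCG, read on both strands, in 16 of 43 (37.2%) and 10.5%. Either was present in 23 of 43 (53.5%) and in 17.2% of all genes. Mybbp1a and Pes1 held both, and these motifs shared no base in any window. The 9 palindromes are shown with up to 12 bases on each side, 5′ to 3′ on the gene's strand, with the E-box in capitals, because they are the sequence that a Myc dimer is known to bind.
Imp4: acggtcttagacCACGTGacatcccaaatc
Mybbp1a: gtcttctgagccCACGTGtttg
Nop2: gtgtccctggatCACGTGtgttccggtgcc
Pes1: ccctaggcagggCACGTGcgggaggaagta
Tsr1: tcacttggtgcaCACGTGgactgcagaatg
Utp18: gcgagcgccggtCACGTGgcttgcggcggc
Utp20: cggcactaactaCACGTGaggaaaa
Utp4: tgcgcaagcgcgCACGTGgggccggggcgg
Wdr43: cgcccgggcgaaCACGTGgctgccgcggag

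These windows lie at chr1:34439696-34439725 (Imp4), chr11:72441355-72441376 (Mybbp1a), chr6:125131811-125131840 (Nop2), chr11:3963965-3963994 (Pes1), chr11:74898092-74898121 (Tsr1), chr10:88826765-88826789 (Utp20), chr8:106893643-106893672 (Utp4) and chr17:71616220-71616249 (Wdr43), and at chr11:93885769-93885798 (Utp18), all on GRCm38.p6, with Utp18 and Utp20 on the minus strand. The palindromes of Imp4, Nop2 and Utp18 lie before the start site and the other 6 after it, within the first transcribed bases. Nop2 gives the whole upstream stretch at chr6:125131633-125131882, plus strand, with its E-box in capitals.
Nop2 upstream: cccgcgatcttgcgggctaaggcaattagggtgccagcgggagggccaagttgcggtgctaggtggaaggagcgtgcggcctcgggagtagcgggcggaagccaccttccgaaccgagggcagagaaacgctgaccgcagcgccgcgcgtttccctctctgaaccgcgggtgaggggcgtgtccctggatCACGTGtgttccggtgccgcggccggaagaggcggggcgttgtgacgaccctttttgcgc

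Set beside the motifs, the differences were as follows. With CytoD the median log2 fold change was -1.15 in the 9 genes with CACGTG and -1.07 in the 34 without it, and -0.82 in the 16 with CACGCG and -1.19 in the 27 without. With CK666 the medians were 0.14 with and 0.20 without CACGTG, with siArp4 0.33 and 0.059, and with siArp4+CK666 0.53 and 0.19. For CACGCG they were 0.18 with and 0.14 without for CK666, 0.083 and 0.073 for siArp4, and 0.24 and 0.13 for siArp4+CK666. The order with CACGTG thus differed between comparisons in which Myc rose. Nop2, with the E-box just before its start, was at 1852, 1968 and 2102 in control, 2458, 2107 and 2162 with CK666 and 789, 758 and 814 with CytoD, and at 1085, 989 and 1089 in siControl, 969, 887 and 989 with siArp4 and 949, 1049 and 1105 with siArp4+CK666. It fell with CytoD (-1.33 ± 0.11, adjusted p = 1.34e-33 by DESeq2), and in the knockdown groups it was not called (-0.15 ± 0.13 and -0.03 ± 0.13, adjusted p = 0.397 and 0.895). These matches describe the letters in the windows and are no measure of binding.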

How the data were processed

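Estimated counts per gene were deposited by the authors, who quantified paired-end reads that carry no strand information with Salmon 1.2.1 against a mouse transcriptome (GRCm38), and the step that combined transcript estimates into genes is not given in the sources used here. All 18 libraries (6 groups of 3) held 18075610 to 24733212 estimated counts, which were rounded to whole numbers, and symbols came from GENCODE release 21. DESeq2 1.42.0 in R 4.3.3 was fitted over all genes, with the 9 libraries of each experiment together and 18 for the interaction. A call was a Benjamini-Hochberg adjusted p under 0.01, and the fold rule added an absolute log2 fold change over 1. Fold changes were not shrunken and carry the SE of the fit. Alternatives were the quasi-likelihood test of edgeR 4.0.16, other size factors, a low count filter (10 counts in 3 libraries), a replicate block, 1 fit of all 18 libraries and leaving out each library.

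Named genes were picked from Myc, the polymerase I and snoRNP genes, the 3 other members with the largest rise and fall among called members of each comparison, members called in the interaction, and the 2 largest in each direction of each further list. Not all of these are given in every comparison, and some have a log2 difference without values per library. Other members with values were chosen after their values were seen. The members and lists were chosen with earlier results of these data known. The fitting code was tested on simulated counts.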

Additional observations from a re-analysis of the deposited data

Results flagged for a closer look

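The test of the difference between the CK666 response in knockdown and in untransfected cells passed in 4 of the 49 genes, near the 7.8% of all tested genes that passed. The difference, knockdown minus untransfected, was -1.03 for Myc, 0.64 for Nolc1, 0.88 for Ddx21 and 0.94 for Polr1b on the log2 scale, with adjusted p from 1.71e-05 to 0.00384 by DESeq2. With edgeR's quasi-likelihood test Myc alone was called. Transfection and loss of Arp4 cannot be told apart in these differences.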

How the results depend on the processing

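Of 480 alternative values of the 28 main results 422 stayed within the spread or within 1.5 times the count. No called value changed sign, while the median of the interaction, -0.04 and without a test, was 0.081 without CK666 replicate 1. The calls for Myc were the same under every alternative. Of 1688 alternative values of single named genes 1579 kept their call, 105 lost it and 4 gained one. The size factors moved the median of all genes by at most 0.091 on the log2 scale. The cause of the changes below was not tested.

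With edgeR's quasi-likelihood test the members called went from 9 to 4 with CK666, from 14 to 7 with siArp4 (from 3 to 1 with the fold rule), from 8 to 5 with the fold rule with siArp4+CK666, from 2 to 0 for siArp4+CK666 against siArp4 (8 at an unadjusted p under 0.05) and from 4 to 1 for the interaction. Calls over all tested genes fell too, from 4381 of 14597 to 3441 of 13308 with CK666 and from 3867 of 15415 to 2462 of 13415 with siArp4. For siArp4+CK666 against siArp4 they went from 1395 of 14098 to 612 of 13415, and for the interaction from 1054 of 13511 to 520 of 14178. In 1 fit of all 18 libraries CK666 had 4 calls, 0 past the fold rule, and siArp4+CK666 against siArp4 had 6. In that fit CytoD had 41 calls where the main fit had 46, and CK666 against CytoD had 46 where the main fit had 49. Upper quartile size factors gave 0 past the fold rule for CK666, 5 for siArp4, 1 call for siArp4+CK666 against siArp4 and a median of 1.10 for CK666 against CytoD. Total count size factors gave a median of -1.07 with CytoD, and the low count filter gave 4 calls for siArp4+CK666 against siArp4.

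Leaving out 1 library gave 4 (without control replicate 3) to 16 calls (without CK666 replicate 2) and 0 to 1 past the fold rule for CK666, and a median of 1.15 to 1.32 for CK666 against CytoD. For siArp4 it gave 9 (without siArp4 replicate 1) to 18 calls (without siControl replicate 1), 3 to 5 past the fold rule and a median of 0.13 to 0.31. For siArp4+CK666 it gave 5 to 11 past the fold rule and a median of 0.21 to 0.43, and against siArp4 0 to 4 calls. The interaction had 2 (without control replicate 3) to 6 calls (without siControl replicate 2), 0 to 2 past the fold rule and a median of -0.10 to 0.081.

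Libraries of different groups shared replicate numbers, and no source says that a number marks a common batch. The correlations of same-numbered deviations ran from -0.278 to 0.535, so the samples were not treated as pairs. With a replicate block the calls were 8 with CK666 (0 past the fold rule), 46 with CytoD, 48 for CK666 against CytoD, 13 with siArp4, 19 with siArp4+CK666, 0 against siArp4 (9 at an unadjusted p under 0.05) and 4 for the interaction.

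The 3 libraries of each group and the spread of siControl limit the precision of the smaller differences. Every member had at least 134 counts in every library.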
